A study of Mus musculus with 12 samples.

Results

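The genes described here carry 3 connected signalling routes, those of NF-kB, of the MAP kinases and of JAK and STAT, in the terminal ileum of the mouse. They were taken by symbol, as every gene with values whose symbol starts with Nfkb, Rel, Ikbk, Irak, Mapk, Map4k, Jak, Stat or Socs, together with those present of Chuk, Tyk2, Tbk1, Myd88 and Ripk2. This symbol rule was chosen with earlier results of these data known. The rule found 38 of the 556 genes with values, and 35 of these are described and counted below. Rel itself and Ripk2 were not among them. RNA of 12 male C57BL/6 mice, 3 in each of 4 groups, was measured at week 7 with the NanoString nCounter mouse immunology panel, which counts hybridized reporter probes without sequencing.

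The groups differed in microbiota and in early exposure to tylosin, a macrolide antibiotic. SPF control mice were colonized (labelled Wild-type) and received no antibiotic, and SPF PAT mice were colonized and received a pulsed antibiotic treatment (PAT) of tylosin early in life. GF control and GF PAT mice were germ-free without and with tylosin. Pups were exposed while nursing, through the dam. The dose that reached a single pup is not given in the sources used here. The labels do not say which mice shared a litter or cage, so a p-value here measures the spread between these mice and treats each as independent. In the study each dam was assigned to tylosin or control together with her litter, so litter and treatment cannot be told apart. SPF litters came from purchased parents and germ-free mice from the authors' own facility, so colony and microbiota cannot be told apart either. The comparisons ask what a colonized ileum holds relative to a germ-free one, what early tylosin changes with and without microbes, and whether these changes differ.

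In this tissue, microbial products reach Toll-like and related receptors, which act through the adaptor Myd88 and the IRAK kinases. The IkB kinase complex then marks IkB proteins for breakdown, which frees NF-kB to enter the nucleus, while MAP kinases carry the same input to other transcription factors. Cytokines and interferons instead bind receptors that carry JAK kinases, the JAKs phosphorylate STAT proteins, and SOCS proteins switch the receptor off again. Many of these proteins are controlled by phosphorylation or breakdown, which RNA levels do not show.

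Several of the feedback inhibitors are themselves targets of the route they restrain. The stretches of 250 bases before the start of transcription of 3 of them are shown for that reason, from RefSeq on mouse build GRCm38.p6, 5′ to 3′ on the strand of the gene. Capitals mark the letters that matched a searched motif. Socs1 lies on the minus strand, and its stretch is chr16:10785537-10785786. Here the capitals are a pair of overlapping matches to the interferon-stimulated response element, which is GAAA, any 2 bases and GAAA again, whose first bases lie 83 and 77 bases before the start.
Socs1: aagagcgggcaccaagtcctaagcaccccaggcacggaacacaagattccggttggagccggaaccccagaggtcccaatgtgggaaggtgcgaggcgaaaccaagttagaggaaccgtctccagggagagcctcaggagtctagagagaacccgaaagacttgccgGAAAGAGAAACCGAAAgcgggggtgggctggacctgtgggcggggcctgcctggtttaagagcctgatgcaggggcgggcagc
The stretch of Socs3, also on the minus strand, is chr11:117969367-117969616, and its capitals match the gamma-activated site TTCNNNGAA that STAT proteins bind.
Socs3: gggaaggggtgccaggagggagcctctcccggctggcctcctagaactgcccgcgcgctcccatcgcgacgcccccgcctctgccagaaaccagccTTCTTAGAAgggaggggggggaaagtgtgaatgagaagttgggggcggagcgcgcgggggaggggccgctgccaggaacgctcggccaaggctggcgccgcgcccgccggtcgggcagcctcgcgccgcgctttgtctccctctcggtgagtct
For Nfkbia, on the minus strand at chr12:55492648-55492897, the capitals match the kappa B letters, which are GGG, any 2 bases and TTTCC, as read on the opposite strand.
Nfkbia: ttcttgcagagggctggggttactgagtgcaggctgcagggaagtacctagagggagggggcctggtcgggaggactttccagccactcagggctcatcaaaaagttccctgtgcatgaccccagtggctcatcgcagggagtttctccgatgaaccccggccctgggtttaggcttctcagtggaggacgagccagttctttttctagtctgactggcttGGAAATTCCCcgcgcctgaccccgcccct

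The table held a promoter window, of 250 bases before to 50 bases after the start, for 29 of the 35 genes. Both strands were searched. Nfkbiz, Relb, Nfkb1 and Map4k4 were among the genes without a window, so their promoters were not searched. The interferon-stimulated response element was found in windows of 5 genes, which were Socs1, Stat2, Stat4, Myd88 and Mapk14, and in 3.44% of all 32851 windows. The gamma-activated letters TTCNNNGAA were found in 5, which were Socs3, Chuk, Mapk14, Myd88 and Nfkb2, against 8.30% of all windows. The kappa B letters were found in 2, Nfkb2 and Nfkbia, against 1.63%, and the AP-1 letters TGANTCA in 3, Ikbke, Ikbkg and Nfkb2, against 7.81%. A gene can have several windows, so that shares per gene and per window are not the same quantity, and a match is a run of letters rather than a site shown to be bound.

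In colonized mice without tylosin, most of these genes read lower than in germ-free mice, and a small set read higher. Of the 35, 22 passed the threshold (limma, adjusted p under 0.05) in SPF control against GF control, with 4 higher and 18 lower, where 42.1% of all 556 genes passed, 19.4% as higher and 22.7% as lower. The groups did not overlap for 25 of the 35, beside 52.2% of all genes. Higher were Stat4, Jak3, Nfkbiz and Socs1, and the 18 lower ones held all 5 genes of the IKK group, 3 of 4 NF-kB subunits and 3 of 4 JAKs. The median difference over the 35 genes was -0.43 on the log2 scale, beside 0.08 over all 556 genes. After PAT in colonized mice 12 passed, 10 as higher and 2 as lower (26.3% of all genes, 14% as higher and 12.2% as lower), and the groups did not overlap for 21 (41% of all genes). The medians were then 0.30 over the 35 and -0.02 over all genes. After PAT in germ-free mice none passed by limma, and 0% of all genes did.

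These directions are relative to the scaling of each mouse, and the 3 SPF control mice had the highest total counts (806043 to 923395, against 600308 to 681370 in the other 9). Values are log2 counts after division by 1 size factor per mouse (0.830 to 1.25), so a difference of 1 is a doubling. For SPF control against GF control, the 22 genes that passed kept their direction under each of 5 scalings, the deposited one included, but only 7 of them passed under each. Those 7 were Jak3 and Stat4 (higher) and Jak2, Map4k4, Chuk, Stat6 and Irak2 (lower). For SPF PAT against SPF control, none of the 12 genes passed under each scaling, and Nfkb1 and Ikbkb changed sign when the counts were not scaled. Without scaling, the typical gene shifted by 0.38 in the first comparison, where 7 of the 35 genes passed as higher and 5 as lower, and by -0.42 after PAT, where none passed as higher and 5 as lower. Centring each mouse on its median shifted it by -0.44 and gave 2 higher and 24 lower, and after PAT by 0.36, with 10 higher and none lower. Quantile normalization shifted it by -0.29 and 0.25 and gave 4 higher and 18 lower, and after PAT 14 and 2. Scaling to the total count shifted it by -0.01 and 0.03 and gave 4 higher and 21 lower, and after PAT 21 and 2.

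**Figure D1:**
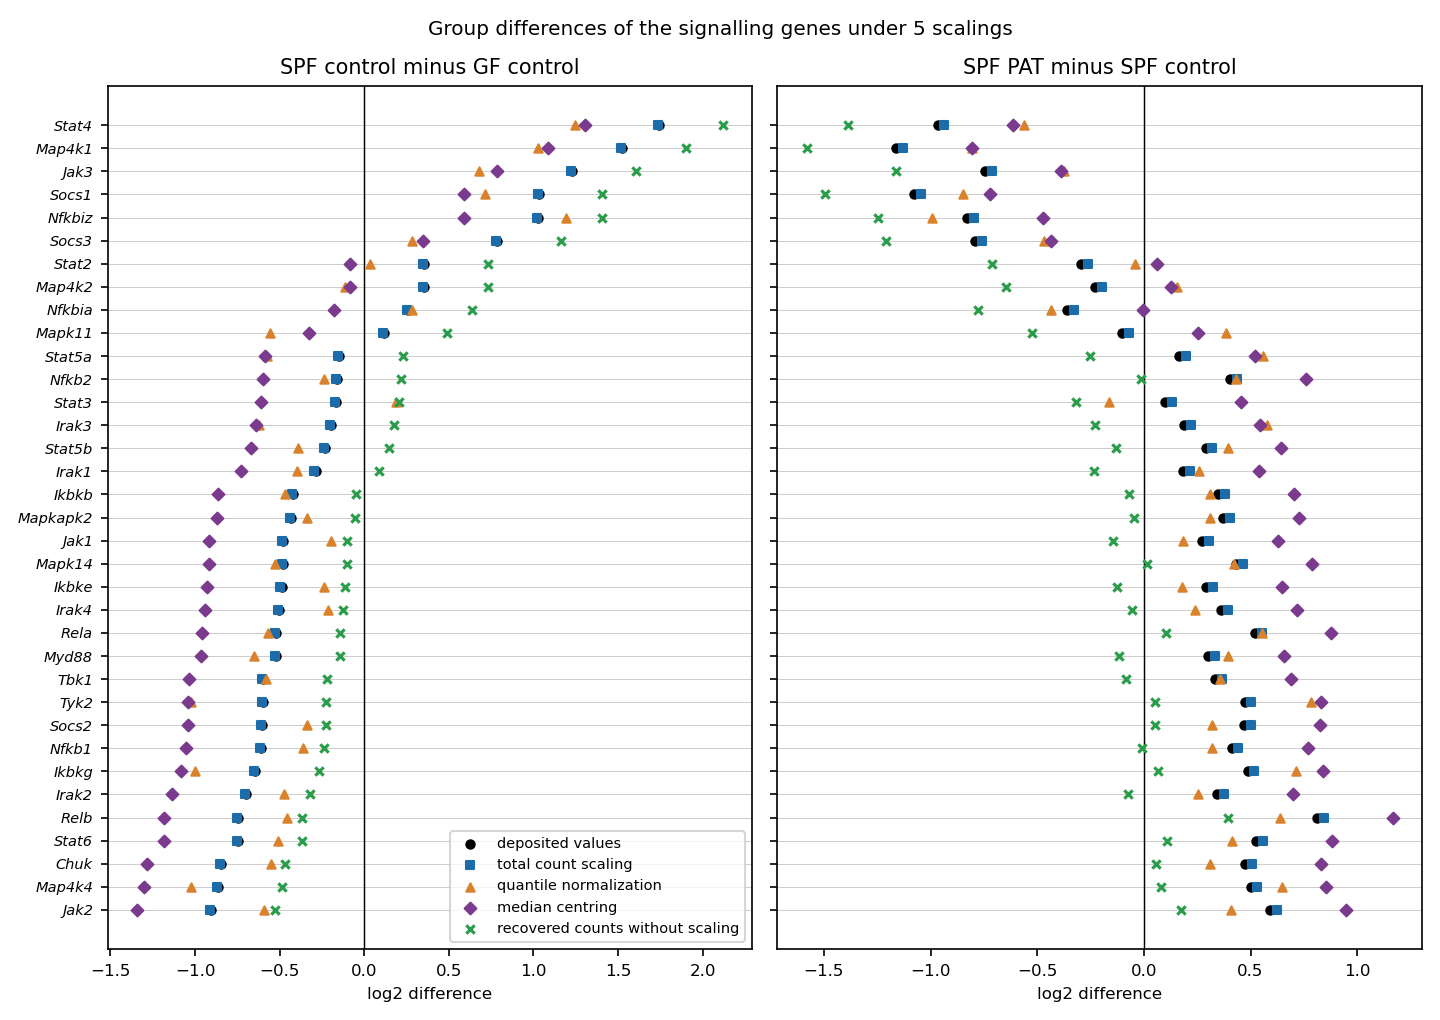
Log2 difference of each of the 35 genes between SPF control and GF control mice (left) and between SPF PAT and SPF control mice (right), under 5 scalings of the same counts; the genes are in the order of the deposited values on the left. Stat4, Jak3, Socs1 and Nfkbiz lie above 0 on the left and below 0 on the right under every scaling shown, whereas the difference after PAT lies on different sides of 0 for 18 of the 35 genes.

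Values for single genes below are log2 normalized counts in each mouse, in the order of mouse numbers, which is 2, 7 and 8 for SPF control, 21, 26 and 27 for SPF PAT, 37, 38 and 39 for GF control, and 41, 42 and 43 for GF PAT. Differences are given ± SE from 1 limma model over the 12 mice. Counts of these genes ran from 16 to 4359 in a mouse, and all 35 had a mean normalized count of at least 20. The SD between mice of 1 group was 0.15 for the median gene of the 35, beside 0.30 for the median of all genes. The ileal genes Pigr, Itln1, Mme, Dpp4 and Abcb1a together reached 122110 to 196135 normalized counts in every mouse, and no marker of the B cell, T cell, myeloid or epithelial lists was at 0 in any mouse.

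**Figure D2:**
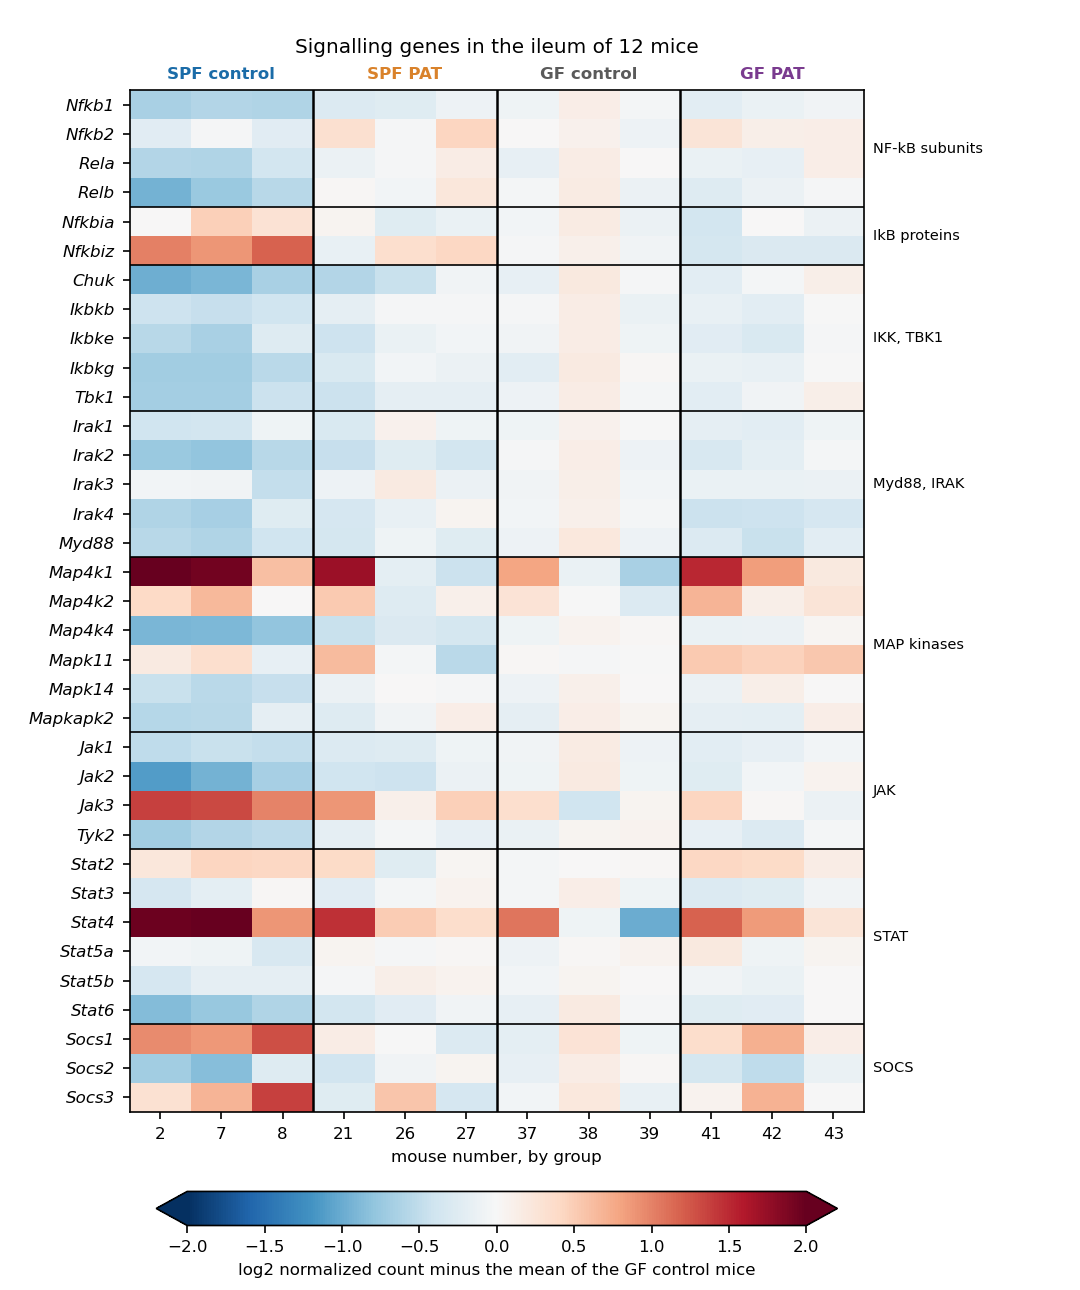
Level of the 35 genes (rows, by role) in each of the 12 mice (columns, by group and mouse number), as log2 normalized count minus the mean of the 3 GF control mice; blue is lower and red is higher. In the SPF control mice, rows of the IKK group, most NF-kB subunits and Jak1, Jak2 and Tyk2 are blue, and Nfkbiz, Jak3, Stat4 and Socs1 are red.

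In 15 of the 35 genes all 3 SPF control mice read below each of the other 9 mice, and in 3 (Nfkbiz, Jak3 and Socs1) they read above all 9. Over all 556 genes these shares were 17.1% and 14.4%. The 15 were Nfkb1, Rela, Relb, Chuk, Ikbkb, Ikbkg, Tbk1, Irak2, Map4k4, Mapk14, Jak1, Jak2, Tyk2, Stat5b and Stat6.

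Of the 5 genes that relay Toll-like and interleukin-1 receptor signals, Irak2, Irak4 and Myd88 passed as lower in SPF control than GF control mice, and none of the 5 passed after PAT in colonized mice. Myd88, the adaptor of most Toll-like receptors, read 8.58, 8.53 and 8.74 in the SPF control mice, 8.80, 9.06 and 8.90 in the SPF PAT mice, 9.04, 9.35 and 9.03 in the GF control mice and 8.87, 8.70 and 8.92 in the GF PAT mice. The SPF control values lay below all GF control values, by 0.52 ± 0.13 (adjusted p = 0.0107), and the SPF PAT values lay above all SPF control values, by 0.30 ± 0.13 (adjusted p = 0.115). Irak2, a kinase that prolongs the signal, read 10.27, 10.21 and 10.44 in the SPF control mice, 10.55, 10.77 and 10.63 in the SPF PAT mice, 10.97, 11.13 and 10.91 in the GF control mice and 10.68, 10.81 and 10.96 in the GF PAT mice. Its SPF control mice lay below the other 9, with a difference from GF control of -0.70 ± 0.12 (adjusted p = 0.00203), whereas SPF PAT differed from SPF control by 0.34 ± 0.12 (adjusted p = 0.0631). Irak4, the first kinase to join Myd88, read 10.72, 10.65 and 11.07 in the SPF control mice, 10.98, 11.17 and 11.38 in the SPF PAT mice, 11.26, 11.42 and 11.28 in the GF control mice and 10.89, 10.90 and 10.99 in the GF PAT mice. Its GF PAT mice lay below its GF control mice, and SPF control differed from GF control by -0.50 ± 0.14 (adjusted p = 0.0187), which did not pass under quantile normalization or without scaling. Irak1 and Irak3, the latter an inhibitor of the other IRAKs, did not pass in either comparison, with -0.29 ± 0.13 and -0.20 ± 0.14 for SPF control against GF control. Without scaling both of these values turned positive.

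The 5 genes of the IKK group were all lower in SPF control than GF control mice, 2 of the 5 passed as higher in SPF PAT than SPF control mice, and the sign held under all scalings in the first comparison, whereas Ikbkb, Ikbke and Tbk1 turned in the second without scaling. Chuk (IKK alpha) read 10.41, 10.48 and 10.74 in the SPF control mice, 10.80, 10.94 and 11.31 in the SPF PAT mice, 11.22, 11.58 and 11.36 in the GF control mice and 11.18, 11.34 and 11.50 in the GF PAT mice. Its highest SPF control value lay below its lowest GF control value, and below each SPF PAT value by a narrow margin, so that the groups differed by -0.84 ± 0.17 (adjusted p = 0.00363) and by 0.47 ± 0.17 after PAT (adjusted p = 0.0628). Ikbkb (IKK beta) read 9.37, 9.33 and 9.40 in the SPF control mice, 9.62, 9.76 and 9.77 in the SPF PAT mice, 9.77, 9.95 and 9.66 in the GF control mice and 9.65, 9.59 and 9.79 in the GF PAT mice. The 3 SPF control mice were the lowest of the 12, by 0.42 ± 0.11 below GF control (adjusted p = 0.013), and SPF PAT mice were 0.35 ± 0.11 above them (adjusted p = 0.0447). The difference after PAT did not pass under median centring, quantile normalization or Tukey HSD, or with any one of 10 of the 12 mice left out. The regulatory subunit Ikbkg (NEMO) read 7.87, 7.86 and 8.03 in the SPF control mice, 8.26, 8.51 and 8.45 in the SPF PAT mice, 8.36, 8.75 and 8.58 in the GF control mice and 8.43, 8.41 and 8.56 in the GF PAT mice. SPF control mice lay 0.64 below GF control mice (SE 0.13, adjusted p = 0.00364) and 0.49 ± 0.13 below SPF PAT mice (adjusted p = 0.0225), with no overlap in either comparison. The latter difference did not pass under Tukey HSD, or with any one of 4 of the 12 mice left out.

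The IKK-related kinases lead to interferon genes as well as to NF-kB. Tbk1 read 9.71, 9.70 and 9.95 in the SPF control mice, 9.96, 10.20 and 10.21 in the SPF PAT mice, 10.28, 10.53 and 10.34 in the GF control mice and 10.17, 10.32 and 10.51 in the GF PAT mice. Its SPF control mice were the lowest, though mouse 8 lay just below SPF PAT mouse 21, and the differences were -0.60 ± 0.14 (adjusted p = 0.00674) and 0.34 ± 0.14 (adjusted p = 0.0936). Ikbke read 10.29, 10.19 and 10.59 in the SPF control mice, 10.44, 10.71 and 10.80 in the SPF PAT mice, 10.78, 10.998 and 10.76 in the GF control mice and 10.63, 10.54 and 10.82 in the GF PAT mice. SPF control mouse 8 lay among the SPF PAT mice, and only the difference from GF control passed (-0.49 ± 0.15, adjusted p = 0.0257).

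In the IkB group Nfkbiz went the other way from the kinases. Nfkbia did not pass. Nfkbiz (IkB zeta), a nuclear member that NF-kB induces and that is needed for some of its secondary targets, read 11.26, 11.14 and 11.43 in the SPF control mice, 10.10, 10.58 and 10.66 in the SPF PAT mice, 10.23, 10.35 and 10.17 in the GF control mice and 9.89, 9.95 and 9.96 in the GF PAT mice. SPF control mice held the 3 highest values, 2.04-fold those of GF control mice (1.03 ± 0.15, adjusted p = 0.000932), and SPF PAT mice read 0.83 ± 0.15 below them (adjusted p = 0.00545). Both calls were lost under median centring, where the values were 0.59 and -0.47, and they held under the 3 other scalings. Nfkbia (IkB alpha), the classical inhibitor whose stretch with a kappa B match is printed above, read 9.92, 10.38 and 10.21 in SPF control mice and 9.86, 10.08 and 9.80 in GF control mice. These groups overlapped, and the difference of 0.26 ± 0.16 did not pass (adjusted p = 0.209), nor did that after PAT (-0.36 ± 0.16, adjusted p = 0.115). Without scaling Nfkbia passed in both, at 0.64 and -0.78.

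Of the NF-kB subunits, Nfkb1, Rela and Relb passed in both comparisons, lower in SPF control than in GF control mice and higher in SPF PAT than in SPF control mice, with Nfkb1 turning by a margin to -0.01 in the second without scaling. Relb, the subunit of the non-canonical route that pairs with p52, read 10.96, 11.17 and 11.36 in the SPF control mice, 11.94, 11.86 and 12.13 in the SPF PAT mice, 11.86, 12.07 and 11.79 in the GF control mice and 11.64, 11.80 and 11.89 in the GF PAT mice. The 3 SPF control mice lay far below the other 9, 1.68-fold below GF control (-0.74 ± 0.14, adjusted p = 0.00289) and 1.75-fold below SPF PAT mice (0.81 ± 0.14, adjusted p = 0.00456). Rela (p65), the main activating subunit, read 8.75, 8.74 and 8.97 in the SPF control mice, 9.22, 9.32 and 9.49 in the SPF PAT mice, 9.18, 9.50 and 9.35 in the GF control mice and 9.21, 9.18 and 9.47 in the GF PAT mice. SPF control mouse 8 was the highest of its group and still below all others, with -0.52 ± 0.14 (adjusted p = 0.0129) and 0.52 ± 0.14 (adjusted p = 0.0217). After PAT, Rela did not pass under Tukey HSD, or with any one of 4 of the 12 mice left out. Nfkb1 (p105 and p50) read 10.31, 10.37 and 10.34 in the SPF control mice, 10.68, 10.72 and 10.86 in the SPF PAT mice, 10.86, 11.09 and 10.91 in the GF control mice and 10.74, 10.81 and 10.88 in the GF PAT mice. Its SPF control mice lay close together, 0.61 ± 0.10 below GF control (adjusted p = 0.0017), and the SPF PAT mice lay between, 0.41 ± 0.10 above SPF control (adjusted p = 0.019). Nfkb2 (p100 and p52) did not pass, at -0.16 ± 0.13 and 0.40 ± 0.13, and its sign turned in both comparisons without scaling.

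**Figure D3:**
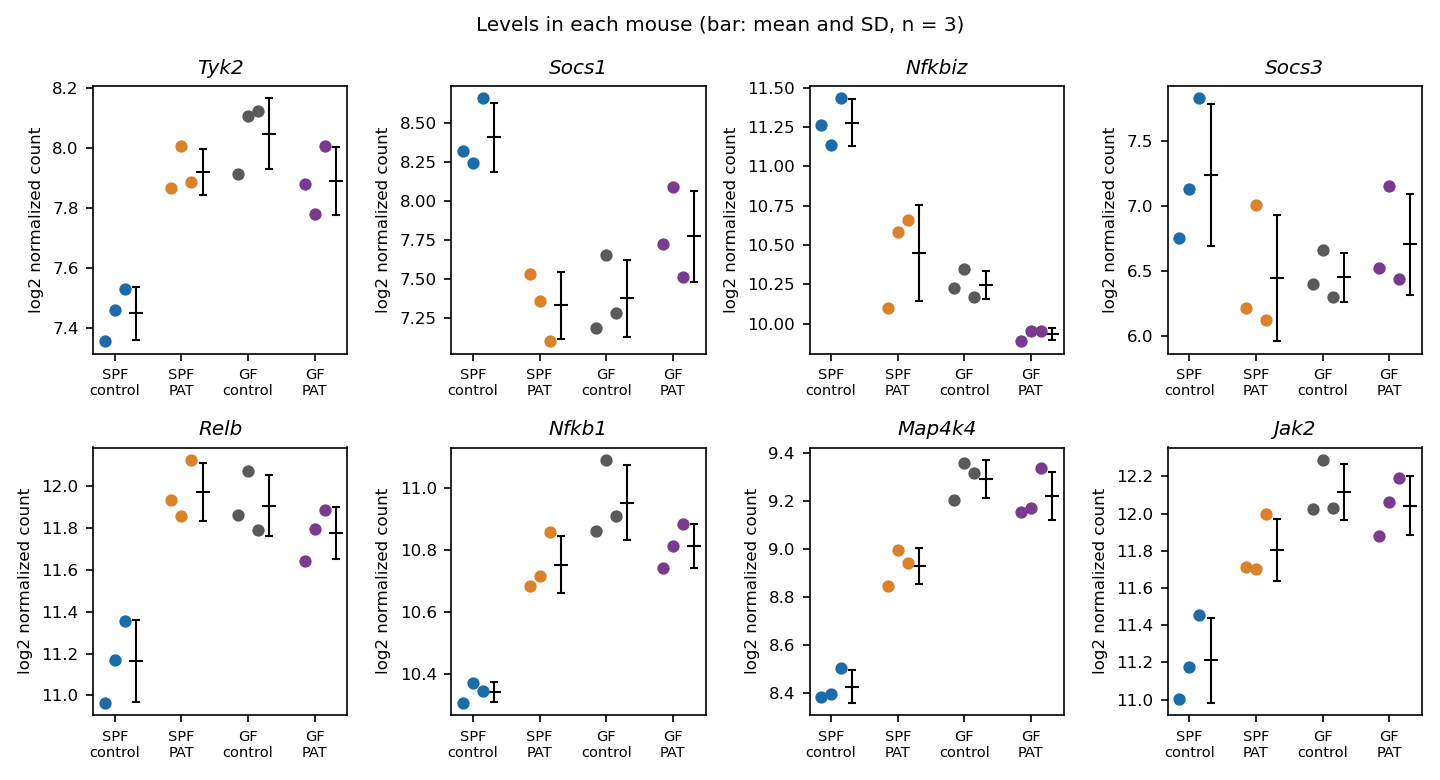
Log2 normalized count of 8 genes in each mouse (points) with mean and SD of the group (bars, n = 3), on axes that do not start at 0. Socs1 and Nfkbiz are highest in the 3 SPF control mice, Tyk2, Relb, Nfkb1, Map4k4 and Jak2 are lowest there, and Socs3 overlaps between SPF control and SPF PAT.

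Genes next to these in the NF-kB route were mixed. Of 22 other pathway genes with values, such as Toll-like receptors and TRAF adaptors, 3 were higher and 9 lower in SPF control than in GF control mice, where 42.1% of all genes passed (19.4% as higher and 22.7% as lower). After PAT 6 were higher and 1 lower, where 26.3% of all genes passed. The smallest adjusted p-values belonged to Sigirr, a brake on interleukin-1 receptor signals (-0.98, then 0.74 after PAT), Traf4 (-0.95, then 0.62) and the flagellin receptor Tlr5 (-0.92, then 0.71). Of 20 known NF-kB target genes, 4 were higher and 1 lower in SPF control mice, with 1 higher and 2 lower after PAT, against the same shares of all genes. Nos2, the inducible nitric oxide synthase, led with 2.85 ± 0.33 (adjusted p = 0.000277) and -1.75 ± 0.33 after PAT (adjusted p = 0.00545), followed by the survival gene Bcl2 (-1.19, then 0.64) and the chemokine Ccl20 (2.25, then -1.51).

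Of the 6 genes of the MAP kinase route, Map4k4 and Mapk14 were lower in SPF control than GF control mice and higher after PAT, with each sign kept under all 5 scalings. Map4k4, an upstream kinase of the JNK route, read 8.38, 8.40 and 8.51 in the SPF control mice, 8.85, 8.998 and 8.94 in the SPF PAT mice, 9.20, 9.36 and 9.32 in the GF control mice and 9.15, 9.17 and 9.34 in the GF PAT mice. SPF control, SPF PAT and GF mice formed 3 levels without overlap, and SPF control lay 0.86 ± 0.10 below GF control (adjusted p = 0.000295, the smallest of the 35 genes) and 0.50 ± 0.10 below SPF PAT (adjusted p = 0.00829). Mapk14 (p38 alpha) read 9.06, 8.96 and 9.04 in the SPF control mice, 9.39, 9.50 and 9.47 in the SPF PAT mice, 9.40, 9.59 and 9.50 in the GF control mice and 9.37, 9.61 and 9.50 in the GF PAT mice. The SPF control mice were the lowest, at -0.48 ± 0.10 (adjusted p = 0.00544), and SPF PAT lay 0.43 ± 0.10 above them (adjusted p = 0.0164). Mapkapk2 and Map4k2 did not pass. Mapk11 (p38 beta) had the smallest difference from GF control of the other genes of this route (0.12 ± 0.25), on counts near the low end.

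Map4k1 (HPK1), a kinase of blood cells, had the largest difference from GF control of the genes of the MAP kinase route and the widest spread of the 35 genes, an SD of 0.87. It read 7.94, 7.83 and 6.50 in the SPF control mice, 7.62, 5.70 and 5.47 in the SPF PAT mice, 6.70, 5.76 and 5.24 in the GF control mice and 7.41, 6.73 and 6.10 in the GF PAT mice. SPF PAT mouse 21 lay above SPF control mouse 8, and neither 1.53 ± 0.65 (adjusted p = 0.0834) nor -1.16 ± 0.65 (adjusted p = 0.201) passed. The same mice stood apart in lymphocyte markers. The 10 B cell markers summed to 6434, 7303 and 1310 normalized counts in SPF control mice 2, 7 and 8, to 6292, 889 and 889 in SPF PAT mice 21, 26 and 27, to 3887, 1169 and 930 in GF control mice 37, 38 and 39, and to 6266, 3834 and 2159 in GF PAT mice 41, 42 and 43. In bulk tissue, fewer cells of a type and less RNA per cell cannot be told apart.

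**Figure D4:**
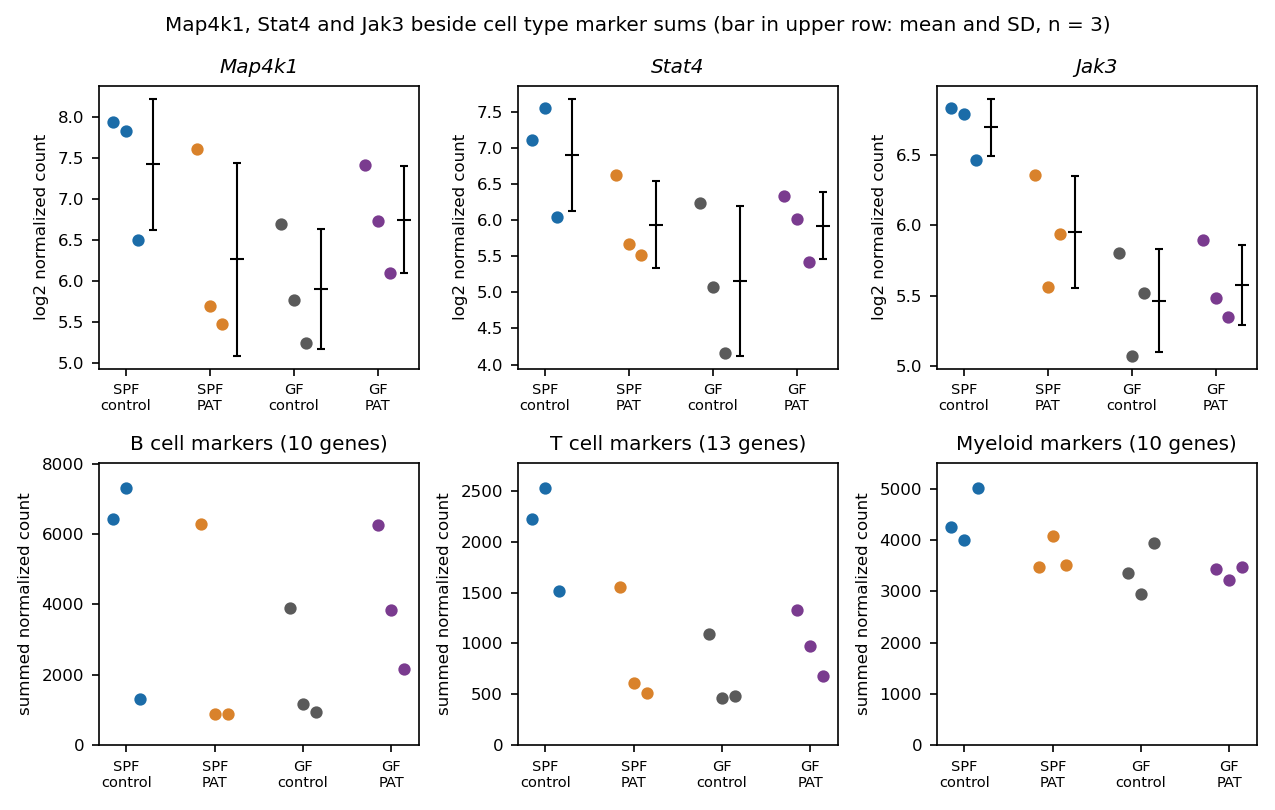
Upper row: log2 normalized count of Map4k1, Stat4 and Jak3 in each mouse with mean and SD (n = 3), on axes that do not start at 0. Lower row: summed normalized counts of 10 B cell, 13 T cell and 10 myeloid markers in the same mice; SPF control mouse 8 is low and SPF PAT mouse 21 is high in the B cell sum and in Map4k1.

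The JAKs split by family member. Jak1, Jak2 and Tyk2, which most tissues express, were lower in SPF control than in GF control mice, and Jak3, which lymphocytes use with the common gamma chain, was higher, with each sign kept under all 5 scalings. Jak2 read 11.004, 11.17 and 11.46 in the SPF control mice, 11.72, 11.70 and 11.996 in the SPF PAT mice, 12.03, 12.29 and 12.03 in the GF control mice and 11.88, 12.06 and 12.19 in the GF PAT mice. SPF control mice lay below the other 9, by 0.90 ± 0.16 against GF control, the lowest difference of the 35 genes (adjusted p = 0.00184). SPF PAT mice lay 0.59 ± 0.16 above SPF control mice (adjusted p = 0.0217). That difference did not pass under Tukey HSD, or with any one of 3 of the 12 mice left out. Tyk2 read 7.35, 7.46 and 7.53 in the SPF control mice, 7.87, 8.01 and 7.89 in the SPF PAT mice, 7.91, 8.11 and 8.13 in the GF control mice and 7.88, 7.78 and 8.01 in the GF PAT mice. Its SPF control mice were the lowest as well, with -0.60 ± 0.11 (adjusted p = 0.00266) and 0.47 ± 0.11 after PAT (adjusted p = 0.0151). Jak1 read 10.95, 11.02 and 10.98 in the SPF control mice, 11.19, 11.20 and 11.38 in the SPF PAT mice, 11.39, 11.63 and 11.36 in the GF control mice and 11.24, 11.29 and 11.41 in the GF PAT mice. It passed against GF control (-0.48 ± 0.11, adjusted p = 0.0075) and not after PAT (0.27 ± 0.11, adjusted p = 0.0958), although those groups did not overlap.

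Jak3 read 6.83, 6.79 and 6.46 in the SPF control mice, 6.35, 5.56 and 5.94 in the SPF PAT mice, 5.80, 5.08 and 5.52 in the GF control mice and 5.90, 5.48 and 5.35 in the GF PAT mice. All 3 SPF control values lay above the other 9, 2.34-fold above GF control (1.23 ± 0.25, adjusted p = 0.0042), and the lower level of SPF PAT mice did not pass (-0.74 ± 0.25, adjusted p = 0.0543). Stat4, which T and natural killer cells use after interleukin-12, read 7.11, 7.55 and 6.04 in the SPF control mice, 6.63, 5.67 and 5.51 in the SPF PAT mice, 6.23, 5.08 and 4.17 in the GF control mice and 6.34, 6.01 and 5.42 in the GF PAT mice. SPF control mouse 8 lay below GF control mouse 37, so the groups overlapped, but the difference passed at 1.74 ± 0.56 (adjusted p = 0.0311), the largest of the 35 genes, and that after PAT did not (-0.97 ± 0.56, adjusted p = 0.221). The call of Stat4 against GF control was lost under Tukey HSD and when only the groups compared were fitted. The 13 T cell markers summed to 1517 to 2527 normalized counts in SPF control mice, 513 to 1553 in SPF PAT, 467 to 1094 in GF control and 682 to 1325 in GF PAT mice. Of the 13, 8 passed as higher in SPF control than GF control mice, where 19.4% of all genes did. After PAT 7 passed as lower, where 12.2% of all genes did, and none passed the other way in either comparison. The part of lymphocytes in Jak3, Stat4 and Map4k1 was not tested.

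The epithelial list was split. Of 6 epithelial markers with values, 3 lay below 0 and 3 above 0 in SPF control against GF control. Abcb1a (-2.82), Mme (-2.31) and Dpp4 (-1.23) passed as lower there and were higher after PAT (1.76, 1.14 and 0.70). Pigr passed as higher in the first comparison (0.77), and the other 2 did not pass. Over all genes 19.4% passed as higher and 22.7% as lower in that comparison. The summed epithelial level of SPF control mice (147128 to 177916 normalized counts) overlapped that of GF control mice (161938 to 191651), SPF PAT mice (139702 to 219617) and GF PAT mice (141798 to 166932). The 10 myeloid markers summed to 4001 to 5019 in SPF control, 3469 to 4084 in SPF PAT, 2953 to 3954 in GF control and 3216 to 3483 in GF PAT mice. Of these, 2 were higher and 1 lower in SPF control against GF control, beside 19.4% and 22.7% of all genes. The part of epithelial and myeloid cells in the results was not tested.

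Among the STATs, Stat6 passed in both comparisons, and Stat3 showed no difference past the threshold. Stat6, which carries interleukin-4 and interleukin-13 signals, read 10.64, 10.75 and 10.91 in the SPF control mice, 11.15, 11.29 and 11.45 in the SPF PAT mice, 11.35, 11.69 and 11.50 in the GF control mice and 11.27, 11.29 and 11.52 in the GF PAT mice. It was lowest in SPF control mice, by 0.75 ± 0.14 against GF control (adjusted p = 0.00266) and by 0.53 ± 0.14 against SPF PAT (adjusted p = 0.0217). The second call was lost under Tukey HSD and with any one of 4 of the 12 mice left out. Stat3, which carries interleukin-6, interleukin-10 and interleukin-22 signals, read 11.36, 11.50 and 11.72 in the SPF control mice, 11.47, 11.65 and 11.76 in the SPF PAT mice, 11.65, 11.83 and 11.60 in the GF control mice and 11.42, 11.45 and 11.62 in the GF PAT mice. The 4 groups overlapped, with -0.17 ± 0.13 (adjusted p = 0.317, 95% interval -0.47 to 0.13) for SPF control against GF control, and quantile normalization and unscaled counts turned that sign. Stat2, Stat5a and Stat5b did not pass, and their signs also differed between scalings.

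The SOCS genes, the feedback inhibitors, differed among themselves. Socs1, which restrains interferon signals and carries the paired response element letters printed above, read 8.32, 8.24 and 8.66 in the SPF control mice, 7.53, 7.36 and 7.10 in the SPF PAT mice, 7.18, 7.65 and 7.28 in the GF control mice and 7.72, 8.08 and 7.51 in the GF PAT mice. Each SPF control value lay above the other 9, 2.05-fold above GF control (1.03 ± 0.20, adjusted p = 0.00326), and SPF PAT mice lay 1.08 ± 0.20 below SPF control (adjusted p = 0.00545), both lost under median centring (0.59 and -0.72). Socs3, which restrains Stat3 and bears the gamma-activated letters printed above, read 6.76, 7.13 and 7.83 in the SPF control mice, 6.22, 7.01 and 6.12 in the SPF PAT mice, 6.40, 6.66 and 6.30 in the GF control mice and 6.53, 7.15 and 6.44 in the GF PAT mice. SPF PAT mouse 26 lay between SPF control mice 2 and 7, and neither 0.79 ± 0.32 (adjusted p = 0.077) nor -0.79 ± 0.32 (adjusted p = 0.0959) passed, although both did on unscaled counts (1.16 and -1.21). Socs2, which restrains growth hormone signals, read 10.52, 10.37 and 10.95 in the SPF control mice, 10.83, 11.14 and 11.27 in the SPF PAT mice, 11.04, 11.36 and 11.23 in the GF control mice and 10.87, 10.70 and 11.07 in the GF PAT mice. It was lower in SPF control than GF control mice (-0.60 ± 0.19, adjusted p = 0.0257) and did not pass after PAT (0.47 ± 0.19, adjusted p = 0.0882).

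Receptors around JAK and STAT were mixed. Of 25 cytokine receptors that use JAKs, 7 were higher and 5 lower in SPF control than GF control mice, and 4 were higher and 1 lower after PAT, beside 42.1% and 26.3% of all genes that passed in either direction. The 3 with the smallest adjusted p were the lower ones Ifngr1 (-1.01), Ifngr2 (-0.85), which form the interferon-gamma receptor, and Il10rb (-0.72), with 0.75, 0.69 and 0.62 after PAT. Of 21 genes that interferon is known to induce, 9 were higher and 2 lower in SPF control mice, and 1 was higher and 7 lower after PAT, beside 19.4% and 22.7% of all genes in the first comparison and 14% and 12.2% in the second. The immunoproteasome subunit Psmb9 (1.51 ± 0.16), the peptide transporter Tap1 (1.87 ± 0.20) and Cd274, the ligand PD-L1 (1.49 ± 0.18), had the smallest adjusted p, and after PAT they stood at -1.27, -1.47 and -1.52. Of 5 other regulators of the route, 1 passed in the first comparison, the phosphatase Ptpn2 (-0.58), and none after PAT.

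**Figure D5:**
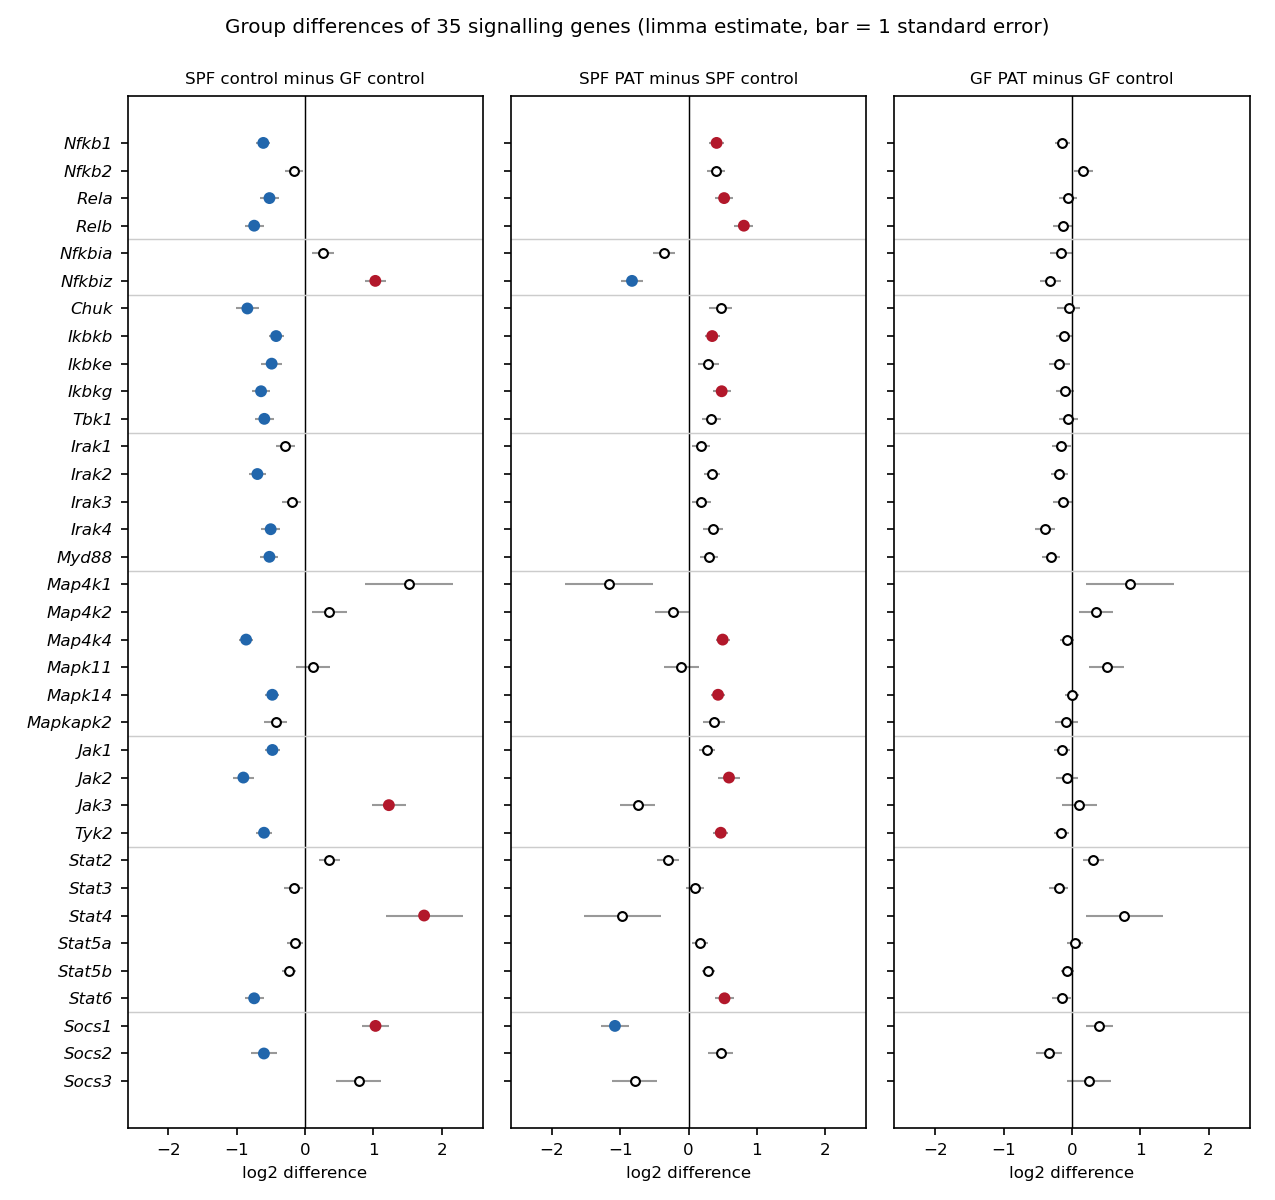
Limma log2 difference of each of the 35 genes in 3 comparisons (points, with a bar of 1 SE); filled points passed an adjusted p of 0.05, red as higher and blue as lower, and open points did not pass. The number of filled points falls from 22 for SPF control against GF control to 12 for SPF PAT against SPF control and 0 for GF PAT against GF control.

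In germ-free mice, PAT was not followed by a difference past the threshold in any of the 35 genes by limma, by Tukey HSD or by voom. At an unadjusted p under 0.05 there were 2 of 35, beside 5.04% of all genes, and the groups did not overlap for 7 (12.1% of all genes). The 2 were Irak4 (-0.39 ± 0.14, unadjusted p = 0.0223) and Myd88 (-0.31 ± 0.13, unadjusted p = 0.0398), both with an adjusted p of 0.693. For the genes that were lower after PAT in colonized mice, the differences in germ-free mice were 0.40 ± 0.20 for Socs1 (95% interval -0.05 to 0.85) and -0.32 ± 0.15 for Nfkbiz (-0.66 to 0.03). For Relb the difference was -0.13 ± 0.14 (-0.45 to 0.18) and for Map4k4 -0.07 ± 0.10 (-0.30 to 0.16), and signs this close to 0 differed between scalings for 14 of the 35 genes.

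Whether PAT acted differently with and without microbes was tested as the difference between its effects in SPF and GF mice. The test was passed by 8 of the 35 genes, 7 as a higher and 1 as a lower difference, where 17.1% of all genes passed, 9.89% as higher and 7.19% as lower. None of the 8 passed under each of the 5 scalings. Relb had the largest positive difference (0.94 ± 0.20, adjusted p = 0.0167) and Socs1 the negative one (-1.48 ± 0.28, adjusted p = 0.0136). Relb and Socs1 passed after any 1 mouse was left out. For Myd88 and Irak4, the lower level of GF PAT than GF control mice entered the difference (0.61 and 0.75). The count was 19 with SPF PAT mouse 21 left out, 13 with SPF control mouse 8 left out, and 2 with any one left out of SPF PAT mice 26 and 27, SPF control mice 2 and 7, GF PAT mice 41 and 42, and GF control mice 38 and 39. Over all genes it was 95 with every mouse kept, 217 without SPF PAT mouse 21, 140 without SPF control mouse 8 and 35 to 58 without any one of the other mice named.

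SPF PAT mice were last set against GF control mice. None of the 35 genes passed by limma, where 2.16% of all genes did, and 2 had an unadjusted p under 0.05 (11% of all genes). These were Map4k4 (-0.36 ± 0.10, unadjusted p = 0.00558) and Irak2 (-0.35 ± 0.12, unadjusted p = 0.0169), both lower in SPF PAT mice without overlap, as was the case in either direction for 5 of the 35 genes and 13.8% of all genes. The median difference over the 35 genes was -0.07, beside 0.01 over all genes. Tukey HSD gave 0 as well, and scaling to the total count gave 1. An F-test over the 4 groups passed for 16 of the 35 genes, where 33.1% of all genes passed.

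The counts in colonized mice changed when single mice were left out, and those over all genes moved the same way. After PAT, 5 of 35 genes passed when SPF PAT mouse 27, SPF control mouse 7 or SPF control mouse 2 was left out, 7 when SPF PAT mouse 26 was, and 21 when SPF PAT mouse 21 was, whose B and T cell marker sums exceeded those of the other SPF PAT mice. Over all 556 genes, 146 passed after PAT with every mouse kept, and leaving out each of these 5 mice in turn, in the same order, gave 73, 75, 64, 89 and 232. Of the 12 genes that passed after PAT, only Relb, Map4k4, Socs1 and Nfkbiz passed whichever mouse was left out. For SPF control against GF control the count stayed between 16 and 25 (169 to 259 of all genes). The F-test fell from 16 to 6 without SPF control mouse 7 and to 7 without mouse 2, while its count over all genes fell from 184 to 84 and 90.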

How the data were processed

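RNA of the terminal ileum was hybridized to the NanoString panel, and no reads were aligned. The authors normalized the counts with DESeq2, and took log2, so that the deposited table gives log2 values of 556 genes, while 28 further entries (reference genes and control probes) hold no value. Multiplying the unlogged values by 1 size factor per mouse gave whole counts for every value above 0, within 0.000337 of a count, with totals of 600308 to 923395, and a count of 0 is written as 0. Counting error falls with the count.

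Groups came from the sample labels. Group means were fitted to the log2 values by lmFit and eBayes of limma 3.58.1 (R 4.3.3, statmod 1.5.0), with all 12 mice in 1 model, 1 mean per group and no filter. P-values were adjusted over the 556 genes (Benjamini-Hochberg, threshold 0.05) in each of 5 comparisons and an F-test. The members and gene lists were chosen with earlier results of these data known. Of the 38 members, 3 are not reported here. Values in every mouse are given for 21 of the 24 members with the smallest adjusted p in the first 4 comparisons and for 6 fixed genes, and Map4k1 and Stat4 were added as the largest differences of their roles. From other lists the 3 genes with the smallest adjusted p are named. The methods' analysis of variance with Tukey HSD, variance models, samples, filter, scaling, pseudocount, voom, effect size and leaving out each mouse were varied, and counts without scaling were added after seeing the data. The model was tested on simulated data. Promoter windows are from RefSeq (GRCm38.p6), in which all 35 symbols were current.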

Additional observations from a re-analysis of the deposited data

Results flagged for a closer look

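The effect of PAT differed between colonized and germ-free mice for 8 of the 35 genes, by limma's test of the difference itself, where 17.1% of all genes passed. A positive value means a higher change in SPF than in GF mice, on the log2 scale. The NF-kB subunits Relb and Nfkb1 differed by 0.94 and 0.55 and the relay genes Irak4 and Myd88 by 0.75 and 0.61. Map4k4 differed by 0.57, Tyk2 by 0.63 and Stat6 by 0.68. The inhibitor Socs1 differed the other way, by -1.48. On unscaled counts only Socs1 of the 8 passed. Relb and Socs1 kept the call whichever mouse was left out, whereas Nfkb1, Map4k4, Tyk2, Stat6 and Irak4 each lost it in 8 of the 12 such fits and Myd88 in 9. The count was 2 with any one of 8 mice left out.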

How the results depend on the processing

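Counts of these genes ran from 16 to 4359 in a mouse, and each group held 3 mice. The parts of counting error and of spread between mice in the precision were not tested. No paired analysis was possible because the mouse numbers differ between groups. Over 25 alternatives, the named genes gave 1017 values for results past the threshold, of which 784 kept direction and call, 231 lost the call and 2 changed sign. For SPF control against GF control the count of 22 fell to 18 under Benjamini-Hochberg adjustment of the methods' Tukey HSD, with Stat4, Irak4, Ikbke and Socs2 lost. It fell to 17 with only the groups compared and to 6 under Benjamini-Yekutieli adjustment of the same Tukey HSD. It was 12 with counts without scaling and 4 with a minimum difference of 1, and leaving out 1 mouse gave 16 to 25. For SPF PAT against SPF control the count of 12 became 7 with Tukey HSD and Benjamini-Hochberg, 0 with Benjamini-Yekutieli, 4 with only the groups compared, 23 with scaling to the total count, 5 without scaling and 1 with the minimum difference, and 5 to 21 when 1 mouse was left out. For the difference between PAT effects the count of 8 became 14 with the analysis of variance under Benjamini-Hochberg, 0 under Benjamini-Yekutieli, 16 with an intensity trend, 15 with a minimum mean count of 20, 5 with median centring and with quantile normalization, 16 with scaling to the total count, 15 with voom, 4 without scaling and 1 with the minimum difference, and 2 to 19 when 1 mouse was left out. It uses all 4 groups, so that fitting only the groups compared gives no other value. The F-test count of 16 became 7 under Benjamini-Yekutieli and 9 without scaling, and 6 to 20 when 1 mouse was left out. SPF PAT against GF control gave 1 with scaling to the total count and 0 under the other alternatives, and GF PAT against GF control gave 0 under all 25. The lower counts under Benjamini-Yekutieli and under the minimum difference follow from stricter rules, and the cause of the other changes was not tested.

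With scaling to the total count the sign turned for GF PAT against GF control in Map4k4 (0.048), Jak2 (0.048), Chuk (0.074), Ikbkg (0.019), Mapk14 (0.12), Tbk1 (0.067), Rela (0.062) and Ikbkb (0.0037). With counts without scaling the sign turned for SPF control against GF control in Stat3 (0.21), for SPF PAT against SPF control in Nfkb1 (-0.0072), Irak2 (-0.075), Tbk1 (-0.083), Jak1 (-0.15), Myd88 (-0.12), Ikbkb (-0.071), Irak4 (-0.058), Ikbke (-0.13) and Stat3 (-0.32), for GF PAT against GF control in Map4k4 (0.028), Jak2 (0.027), Chuk (0.053), Mapk14 (0.095), Tbk1 (0.046) and Rela (0.042) and for the difference between PAT effects in Mapk14 (-0.081), Tbk1 (-0.13), Jak1 (-0.097), Ikbkb (-0.055), Ikbke (-0.043) and Stat3 (-0.22). With median centring the sign turned for GF PAT against GF control in Jak3 (-0.079) and for the difference between PAT effects in Nfkbiz (0.032). With quantile normalization the sign turned for SPF control against GF control in Stat3 (0.19), for SPF PAT against SPF control in Stat3 (-0.16), for GF PAT against GF control in Jak2 (0.052), Relb (0.038), Chuk (0.10), Jak3 (-0.28) and Tbk1 (0.0042) and for the difference between PAT effects in Stat3 (-0.0039). Leaving out 1 mouse turned the sign for GF PAT against GF control in Jak2 (-0.15 to 0.016), Chuk (-0.13 to 0.050), Jak3 (-0.085 to 0.28), Mapk14 (-0.061 to 0.057), Tbk1 (-0.14 to 0.029) and Rela (-0.15 to 0.021).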

Other observations

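Among the interferon target genes, 7 of 21 also differed in their response to PAT between colonized and germ-free mice by limma, 1 as higher and 6 as lower, where 17.1% of all genes did. The 3 with the smallest adjusted p were Cxcl10, a chemokine that attracts T cells (-1.85 ± 0.24, adjusted p = 0.00467), Cd274 (-1.88 ± 0.25, adjusted p = 0.00467) and Tap1 (-1.82 ± 0.28, adjusted p = 0.00924). Of 22 other NF-kB pathway genes 3 passed as higher and none as lower, and of 20 NF-kB target genes 1 passed as higher and none as lower. Of the 13 T cell markers 4 passed, all as lower, and their part in these values was not tested.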
